A study of Mus musculus with 9 samples.

Results

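Interferon-stimulated genes are the genes that cells switch on after an interferon binds its receptor. A list of 41 such mouse genes was followed here on Illumina bead arrays of whole liver. A gene counted as measured when a probe with its symbol in the platform annotation had a detection p under 0.05 on at least 4 of the 9 arrays. By this rule 32 of the 41 genes were measured, among 11559 features (genes, or probes without a gene name) over the whole series. Of the 32 genes, 6 encode interferon-inducible GTPases (Irgm1, Irgm2, Igtp, Iigp1, Gbp2 and Gbp3), and 26 have other roles.

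The first group was 5 livers of LTRβ-/- mice, which lack the lymphotoxin beta receptor, given etanercept 24 h before surgery (KO 1 to KO 5). Etanercept is a soluble TNF receptor fused to an antibody tail, and it binds TNF. The second group was 4 livers of wild-type mice whose treatment is labelled Control (control 1 to control 4). All mice were C57BL/6, all livers were taken 12 h after partial hepatectomy, and the labels give neither age nor what the control mice received in place of the drug. Genotype and drug changed together, so their effects cannot be told apart, and no unoperated liver was used here. The labels do not state that each array is a separate mouse, so the p-values measure only the spread between these arrays.

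Interferons of type I act through a complex that contains STAT2 and IRF9 and binds an element called ISRE in the promoters of its targets, and the response to interferon gamma runs largely through an element called GAS. Many of the induced proteins block viruses, and the immunity-related GTPases (IRG) and guanylate-binding proteins (GBP) act on the vacuoles of intracellular bacteria and parasites. In liver, hepatocytes as well as Kupffer cells, the resident macrophages, respond to interferons. In whole tissue, fewer cells of a type and less RNA per cell cannot be told apart.

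The promoter stretches of 10 measured genes are shown because they carry matches to the patterns of these elements. Irgm2 and Igtp share theirs almost letter for letter. All stretches come from RefSeq (GRCm38.p6), in windows from 250 bases before to 50 after a gene's start. ISRE was searched as GAAANNGAAA with its reverse complement TTTCNNTTTC, and GAS as TTCNNNGAA, which reads the same on both strands. Capitals mark matches, neighbouring or overlapping matches run together, and each stretch has 20 bases on both sides, 5′ to 3′ on the gene's strand.
Irgm2 (chr11:58214882-58214942, + strand): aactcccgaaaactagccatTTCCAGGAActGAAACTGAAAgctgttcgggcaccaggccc
Igtp (chr11:58199491-58199551, + strand): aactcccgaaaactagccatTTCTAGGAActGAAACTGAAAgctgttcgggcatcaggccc
Irgm1 (chr11:48871415-48871470, - strand): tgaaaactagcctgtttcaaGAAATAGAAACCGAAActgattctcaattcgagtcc
Gbp2 (chr3:142620584-142620633, + strand): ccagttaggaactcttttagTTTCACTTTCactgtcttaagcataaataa
Gbp3 (chr3:142559979-142560034, + strand): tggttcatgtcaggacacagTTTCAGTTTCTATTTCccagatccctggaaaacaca
Stat2 (chr10:128270256-128270305, + strand): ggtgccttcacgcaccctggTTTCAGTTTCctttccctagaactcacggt
Bst2 (chr8:71537567-71537628, - strand): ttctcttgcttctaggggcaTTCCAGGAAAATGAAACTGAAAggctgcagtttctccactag
Ifit3 (chr19:34583353-34583436, + strand): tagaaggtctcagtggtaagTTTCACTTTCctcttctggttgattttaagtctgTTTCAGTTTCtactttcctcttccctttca
Isg15 (chr4:156200855-156200916, - strand): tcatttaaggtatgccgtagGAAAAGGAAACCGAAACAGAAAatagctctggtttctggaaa
Rsad2 (chr12:26456543-26456592, - strand): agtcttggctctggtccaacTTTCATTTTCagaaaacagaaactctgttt

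In Irgm2 and Igtp a GAS match is followed, after 2 bases, by an ISRE match, and the longest run of identical bases between their windows, which was 61 bases, lay downstream of the printed matches. The windows of this pair lie 15421 bases apart on chromosome 11, and the longest run that Irgm2 shares with Irgm1 was 11 bases. The Bst2 stretch also holds both elements, there with overlapping letters, and so do the windows of Eif2ak2 and Ifitm3, which are not printed. A RefSeq window was matched for 31 of the 41 genes, 26 of them measured. An ISRE match was found in 15 of these 26 genes, or 48.4% of their 31 windows, against 3.44% of all 32851 windows. A GAS match was found in 9 of the 26 genes, or 29% of their windows, against 8.3% of all windows. All 5 measured GTPase genes with a window held an ISRE match, and 10 of the other 21 did. A match is a description and not a shown binding site, and its bearing on the group differences was not tested.

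After background correction and quantile normalization the array values were taken as log2, so that 1 unit is a doubling, and every difference below is KO minus control from a limma fit over all features. None of the 32 genes passed a Benjamini-Hochberg adjusted p of 0.05 (limma, 0.931 or above for each), and over all features 1 of 11559 did (0.00865%). At an unadjusted p under 0.05, 4 of the 32 genes were lower in KO livers, namely Dhx58, Stat2, Irf9 and Irgm2, against 2.45% of all features, and 0 were higher, against 1.64% of all features. The mean was lower in KO livers for 23 of the 32 genes (71.9%), and for 52.4% of all features. The median difference was -0.32 over the 32 genes and -0.02 over all features. Without KO 4, a dim array described further on, the mean was lower for 25 of the 32 genes (78.1%) and for 50.9% of all features, with medians of -0.29 and -0.01. By the adjusted p, no single gene's difference could be told from the spread between these arrays, which does not show that the groups were alike.

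**Figure D1:**
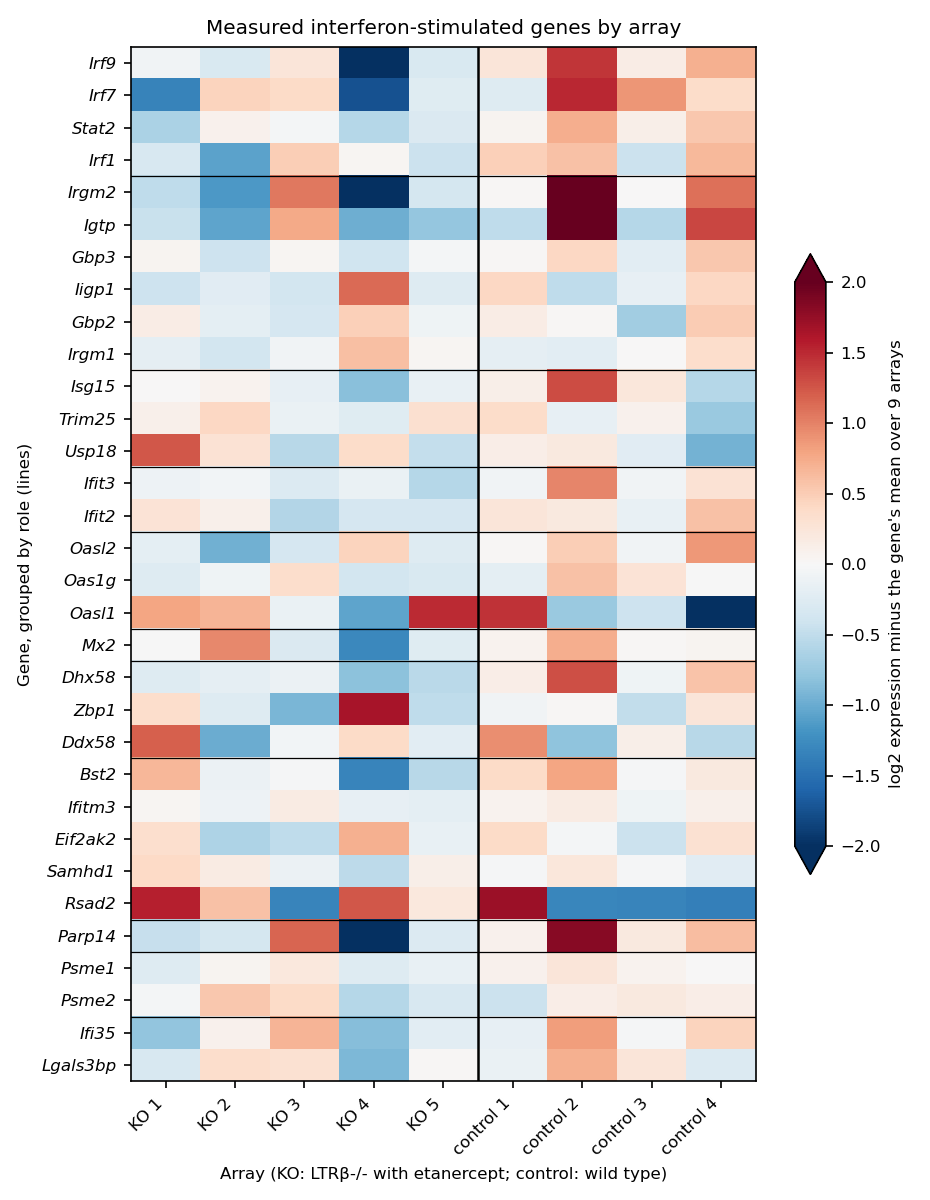
Colours give the log2 expression of each of the 32 measured genes on each array minus the gene's mean over the 9 arrays, with the 5 KO arrays left of the 4 control arrays and lines between roles; the scale ends at 2 in both directions. Control 2 has the highest value of 15 genes and KO 4 the lowest of 14 genes.

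All 4 measured transcription factors of the interferon response had a lower mean in KO livers, and none passed the adjusted threshold. Stat2, the partner of IRF9 in the type I complex, read 5.93, 6.64, 6.52, 5.99 and 6.26 in KO 1 to KO 5, against 6.61, 7.29, 6.68 and 7.09 in control 1 to control 4 (normalized log2 expression). KO 2 alone lay above the lowest control, so the groups overlapped by 1 array. The difference was -0.65 ± 0.25 (SE, limma, adjusted p = 0.931), a KO level 1.57-fold lower.

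Irf9, which gives that complex its DNA contact, read 7.60, 7.36, 7.91, 5.59 and 7.36 in KO 1 to KO 5, against 7.91, 9.09, 7.81 and 8.38 in control 1 to control 4. KO 4 stood apart at the low end and control 2 at the high end, while KO 3 lay above the lowest control. The difference was -1.13 ± 0.45 (SE), and -0.74 without KO 4.

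Irf7, the factor that amplifies interferon production, read 4.75, 6.52, 6.46, 4.34 and 5.84 in KO 1 to KO 5, against 5.82, 7.58, 6.96 and 6.44 in control 1 to control 4. The 2 lowest arrays were KO 1 and KO 4, and the other KO arrays lay within the control range. The difference was -1.12 ± 0.51 (SE), and -0.84 without KO 4. Its probe was detected on 3 of the 5 KO arrays and on all 4 controls, so the low KO values lie near the detection limit. Irf1, a target and effector of interferon gamma, read 9.42, 8.67, 10.23, 9.78 and 9.30 in KO 1 to KO 5, against 10.22, 10.32, 9.30 and 10.39 in control 1 to control 4. Control 3 stood apart from the other controls, within the range of the KO arrays. The difference was -0.58 ± 0.34 (SE).

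The 6 GTPase genes did not move alike: Irgm2 and Igtp had differences beyond -1, and the other 4 lay between -0.34 and 0.01. Irgm2, a regulatory IRG protein, read 7.04, 6.41, 8.61, 5.27 and 7.21 in KO 1 to KO 5, against 7.58, 9.65, 7.57 and 8.65 in control 1 to control 4. KO 3 lay just under control 4, the other 4 KO arrays lay below every control, and control 2 was the highest array. The difference was -1.46 ± 0.63 (SE, limma, adjusted p = 0.931), a KO level 2.74-fold lower, and it was -1.06 without KO 4 and -1.03 without control 2.

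Igtp, also called Irgm3, another regulatory IRG protein, read 7.26, 6.64, 8.46, 6.72 and 6.93 in KO 1 to KO 5, against 7.20, 9.92, 7.13 and 9.04 in control 1 to control 4. The same arrays were high as for Irgm2, namely KO 3 in the KO group and controls 2 and 4 in the control group. The groups overlapped through KO 1 and KO 3. The difference was -1.12 ± 0.59 (SE), and -0.59 without control 2. Irgm2 and Igtp are close relatives, probe sequences were not used here, and whether each probe reads only its own gene was not tested.

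Irgm1, the third regulatory IRG gene, read 12.04, 11.86, 12.15, 12.83 and 12.26 in KO 1 to KO 5, against 12.05, 12.01, 12.23 and 12.58 in control 1 to control 4. The arrays of both groups were interleaved, and control 2, the highest array for Irgm2 and Igtp, was the lowest control here. The difference was 0.01 ± 0.25 (SE) with the probe used and -0.26 with the second probe. Iigp1, an effector IRG protein that coats parasite vacuoles, read 4.81, 5.00, 4.85, 6.35 and 4.96 in KO 1 to KO 5, against 5.63, 4.71, 5.05 and 5.63 in control 1 to control 4. KO 4 was far above the other KO arrays, and the difference was -0.06 ± 0.35 (SE), or -0.37 without that array.

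Gbp2, a guanylate-binding protein recruited to pathogen vacuoles, read 7.28, 6.93, 6.80, 7.61 and 7.05 in KO 1 to KO 5, against 7.27, 7.15, 6.43 and 7.64 in control 1 to control 4. The highest and the lowest array were both controls, and the difference was 0.01 ± 0.28 (SE). Its sign was negative with surgery day as a block, in the authors' own log2 values, with median scaling, with cyclic loess and without background correction. Gbp3 read 6.56, 6.09, 6.55, 6.12 and 6.47 in KO 1 to KO 5, against 6.53, 6.93, 6.30 and 7.05 in control 1 to control 4. Only KO 2 and KO 4 lay below every control, and the difference was -0.34 ± 0.24 (SE) with the probe used and 0.05 with the second one.

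**Figure D2:**
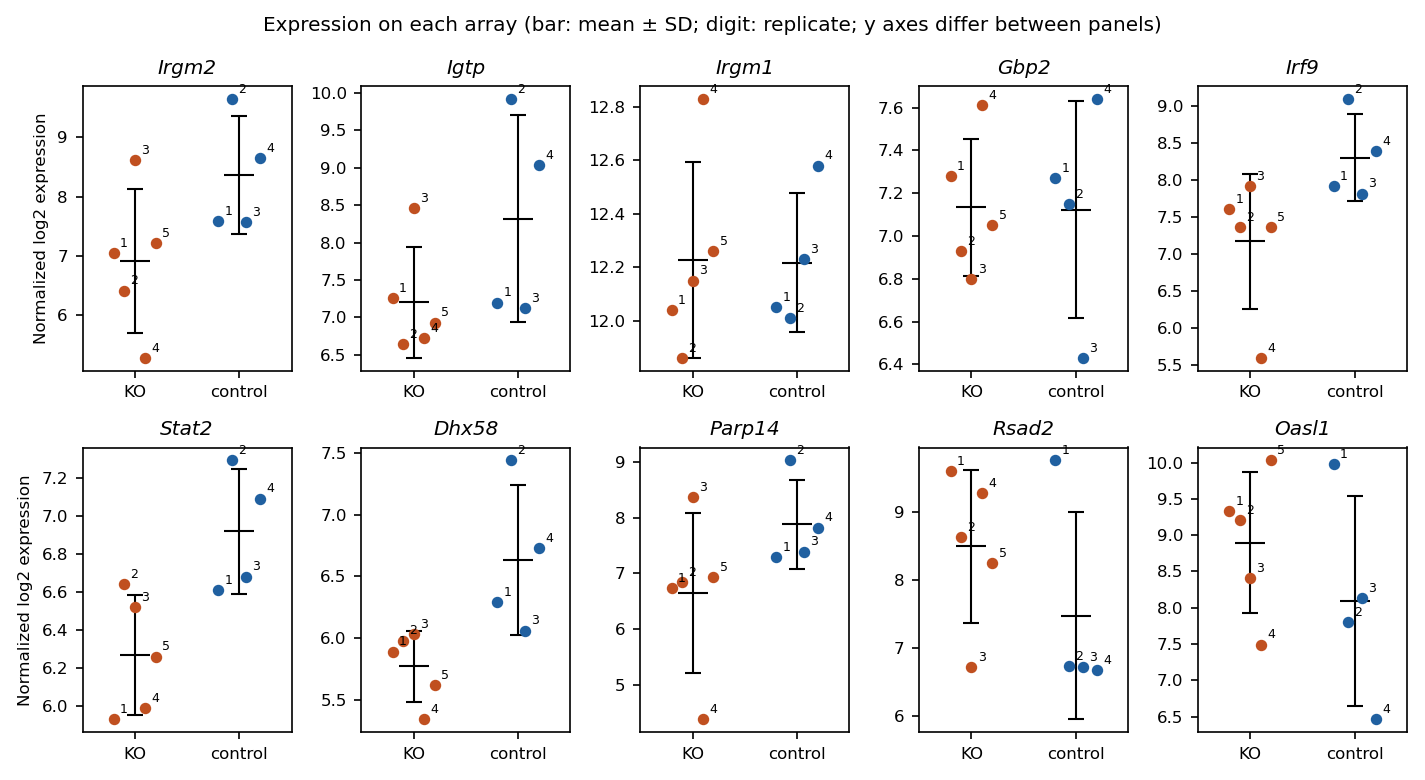
Each point is the normalized log2 expression on 1 array, with KO left of control in each panel, the array number beside it, and bars for the mean ± SD (n = 5 KO, n = 4 control); y axes differ between panels and do not start at 0. Irgm2, Igtp and Parp14 share high values in control 2 and KO 3, Dhx58 is the gene without overlap, and Rsad2 is low in KO 3 and in 3 of the 4 controls.

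The order of the GTPases and the 26 other genes depended on single arrays. The GTPase median difference was -0.20 (4 lower, 2 higher in KO livers), against -0.34 for the others (19 lower, 7 higher) and -0.02 for all features. The medians took the opposite order without KO 4, at -0.33 for the GTPases (6 of 6 lower) and -0.28 for the others (19 of 26 lower). Without control 2 the medians were -0.25 and -0.14, without control 3 -0.35 and -0.30, and without control 4 -0.08 and -0.37.

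On the level of arrays, each gene was set to its deviation from its own mean, and the median was taken over the set. For the GTPases this median was -0.30, -0.39, -0.02, 0.05 and -0.17 in KO 1 to KO 5, against 0.02, 0.22, -0.19 and 0.53 in control 1 to control 4, or -0.17 ± 0.18 (SD, n = 5) and 0.14 ± 0.31 (SD, n = 4). For the others it was -0.02, 0.06, -0.09, -0.44 and -0.25 in KO 1 to KO 5, against 0.09, 0.53, -0.02 and 0.17 in control 1 to control 4, or -0.15 ± 0.20 and 0.19 ± 0.24. The groups overlapped in both sets, and the highest array was control 4 for the GTPases but control 2 for the others. Of the 32 genes, 13, 14, 13, 10 and 6 lay above their own mean in KO 1 to KO 5, against 22, 25, 14 and 23 in control 1 to control 4. Control 3 lay within the range of the KO arrays in these counts and in the GTPase and other medians, as control 1 did for the GTPase median. Over all 32 genes together the median was -0.37 to -0.05 on the KO arrays and -0.02 to 0.45 on the controls. These ranges did not overlap, but the gap was small next to either range, and no test was made.

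**Figure D3:**
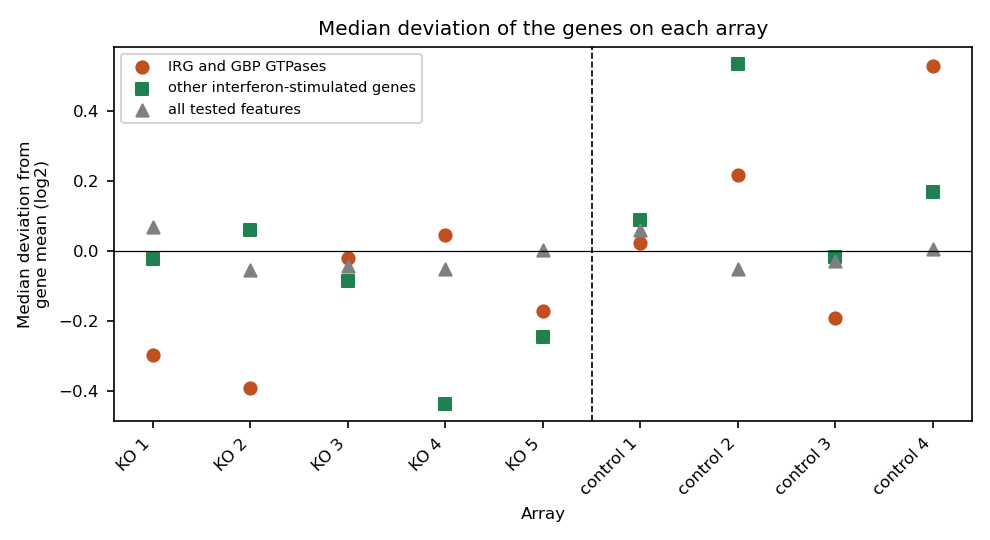
The y axis gives the median log2 deviation from the gene's mean over the 9 arrays, for the 6 GTPases, the 26 other genes and all features on each array, KO left of the dashed line and control right of it. The lowest point of the other genes is KO 4 (-0.44) and the highest is control 2 (0.53).

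Among the antiviral sensors, Dhx58, which encodes the RNA sensor LGP2, was the one gene of the 32 whose groups did not overlap, against 0.467% of all features with each KO array below every control and 0.329% with each above. It read 5.89, 5.98, 6.03, 5.34 and 5.62 in KO 1 to KO 5, against 6.29, 7.44, 6.06 and 6.73 in control 1 to control 4. The gap between the highest KO array and the lowest control was small next to the spread of the controls. The difference was -0.86 ± 0.30 (SE, limma, adjusted p = 0.931), a KO level 1.81-fold lower. The second probe gave -0.81, but on that probe the groups overlapped. KO 3 read 6.29 there, against 5.94 in control 1 and 6.05 in control 3. Ddx58, which encodes the RNA sensor RIG-I, differed by 0.14 ± 0.45 (SE), and by -0.36 with its second probe. Zbp1, a sensor of left-handed nucleic acids, differed by 0.13 and read highest on KO 4, at 8.68, and without that array it differed by -0.27.

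The IFIT genes encode proteins that bind foreign RNA. Ifit3 read 7.31, 7.37, 7.15, 7.29 and 6.85 in KO 1 to KO 5, against 7.34, 8.40, 7.35 and 7.70 in control 1 to control 4. KO 2 lay just above the 2 lower controls, and control 2 was the highest array. The difference was -0.50 ± 0.26 (SE). Ifit2 read 5.59, 5.41, 4.72, 4.98 and 4.97 in KO 1 to KO 5, against 5.55, 5.51, 5.16 and 5.89 in control 1 to control 4. KO 1 and KO 2 lay within the control range, and the difference was -0.40 ± 0.25 (SE), or -0.08 without control 4.

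The OAS family makes or resembles enzymes that activate an RNA-degrading nuclease, and its 3 measured genes did not share a sign. Oasl2 read 6.67, 5.91, 6.53, 7.32 and 6.62 in KO 1 to KO 5, against 6.89, 7.36, 6.80 and 7.74 in control 1 to control 4. All KO arrays but KO 4 lay below every control, and the difference was -0.59 ± 0.31 (SE). Oas1g differed by -0.30 ± 0.24 (SE). Oasl1, singled out after its values were seen because its sign was positive in all settings run, read 9.33, 9.21, 8.41, 7.49 and 10.03 in KO 1 to KO 5, against 9.98, 7.80, 8.13 and 6.46 in control 1 to control 4. Both groups spanned more than 2 log2 units, and the difference was 0.80 ± 0.66 (SE), or 0.26 without control 4.

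Restriction factors block viruses at entry, copying or release, and their differences ran in both directions. Rsad2, which encodes viperin, read 9.60, 8.63, 6.72, 9.28 and 8.25 in KO 1 to KO 5, against 9.76, 6.74, 6.72 and 6.68 in control 1 to control 4. The highest array of all was control 1, the other 3 controls lay together at the low end, and KO 3 lay with them. The difference was 1.02 ± 0.72 (SE), and its sign was negative with surgery day as a block and KO 4 left out together. That fit compares the groups only through KO 1 against control 4 and KO 3 against control 1.

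Bst2, which encodes tetherin, read 7.11, 6.32, 6.42, 5.12 and 5.89 in KO 1 to KO 5, against 6.83, 7.23, 6.42 and 6.64 in control 1 to control 4. KO 4 was the lowest array and KO 1 lay within the control range, and the difference was -0.61 ± 0.37 (SE), or -0.36 without KO 4. Eif2ak2, Ifitm3 and Samhd1 differed by -0.10, -0.12 and 0.02. Mx2, a relative of the dynamin GTPases that was counted among the other genes, differed by -0.39 ± 0.39 (SE), and by -0.11 without KO 4.

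Parp14, an ADP-ribosyltransferase, read 6.74, 6.85, 8.36, 4.39 and 6.93 in KO 1 to KO 5, against 7.29, 9.02, 7.39 and 7.82 in control 1 to control 4. As with Irgm2 and Igtp, control 2 was the highest array and KO 3 the highest KO array, and KO 4 was by far the lowest. The difference was -1.22 ± 0.66 (SE), or -0.66 without KO 4. Ifi35 read 4.47, 5.35, 5.94, 4.42 and 5.06 in KO 1 to KO 5, against 5.10, 6.11, 5.24 and 5.71 in control 1 to control 4. The groups overlapped through KO 2 and KO 3, and the difference was -0.49 ± 0.35 (SE).

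The ISG15 system attaches a ubiquitin-like tag to proteins. Isg15, the tag, differed by -0.48 ± 0.36 (SE), while Usp18, which removes it and also damps the type I receptor, differed by 0.38 ± 0.39, and Trim25, a ligase, by 0.21 ± 0.27. Psme1 and Psme2, the activator subunits of the interferon-inducible proteasome, differed by -0.18 and -0.01, and Lgals3bp, a secreted glycoprotein, by -0.25. Each of these differences was within 1.5 times its standard error. Over all 32 genes, 19 had a difference within 0.5 of 0 in either direction, against 9517 of 11559 features. A difference beyond 1 in either direction was found for 6 of the 32 genes, against 283 of all features.

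**Figure D4:**
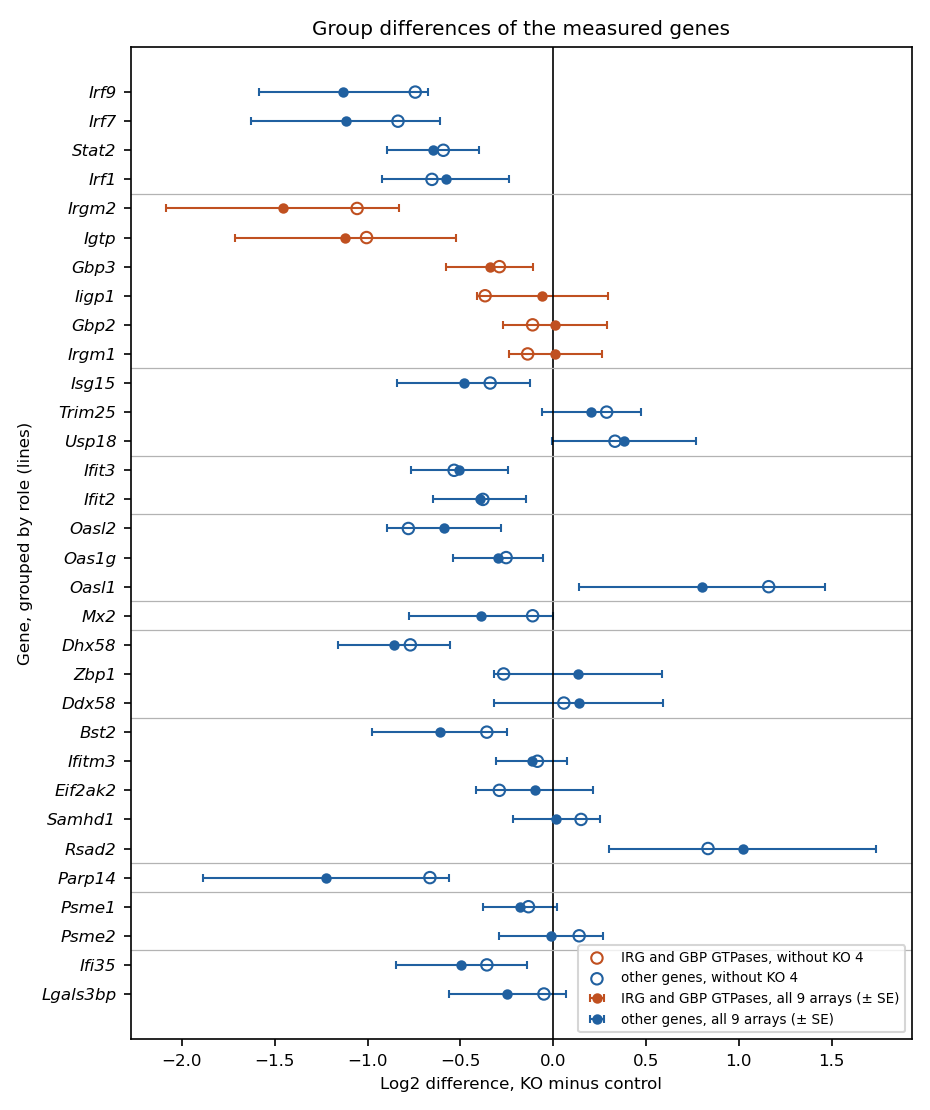
Filled points give the log2 difference, KO minus control, with its standard error for the 32 measured genes on all 9 arrays, and open points the difference without KO 4, with lines between roles. Irgm2 has the lowest value (-1.46) and Rsad2 the highest (1.02), and the open points of Irgm2, Irf9, Irf7 and Parp14 lie closer to 0.

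The 9 genes that were not measured are part of the list. Ifi44 had no probe in the annotation used here. Gbp6, Ifit1, Oas1a, Mx1 and Xaf1 had a probe detected on 0 arrays, and Oas2, Ifih1 and Parp9 on 1 array, so their levels are not known at this sensitivity. The 40 genes with a probe had 79 probes, of which 42 passed the rule. Just inside the rule were Psme2, detected on 5 arrays, and Iigp1, on 6. Irf7, Ifit2, Oas1g and Ifi35 were detected on 7 arrays, each on 3 KO and 4 control arrays. Isg15 was detected on 4 KO and 3 control arrays. In a split chosen after the values were seen, by the mean over all 9 arrays at the median feature, 9 of the 14 brighter genes were lower in KO livers (median -0.15), against 53.1% of the brighter features. Of the 18 dimmer genes 14 were lower (median -0.39), against 51.8% of the dimmer features. Without KO 4 these counts were 10 of 14 (median -0.14) and 15 of 18 (median -0.35).

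Other genes of the pathway were taken from lists. Of 15 interferon ligand genes with a probe, 3 were measured, with differences such as 0.52 for Ifna1 and -0.32 for Ifnab, and Ifnb1 and Ifng were not detected. Ifna1 read 8.66 on KO 4 and 5.47 to 6.18 on the other arrays. Of 13 genes for interferon receptors, their kinases and brakes, 11 were measured, 6 lower and 5 higher in KO livers (median -0.02), with -0.83 for Tyk2, a receptor kinase, or -0.28 without KO 4. Of 16 genes of pathogen sensing and interferon induction, 13 were measured, 9 lower and 4 higher (median -0.13), with -1.18 for Mavs, the adaptor of the RNA sensors, or -0.57 without KO 4. No gene of these lists passed the adjusted threshold.

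Of 13 genes in a list of other IRG, GBP and related GTPases, 4 were measured, 2 lower and 2 higher (median -0.18, or -0.39 without KO 4). The higher ones were Gvin1 (0.33), a GTPase gene of neither family, and Gbp2b (0.28). Gbp2b passed the detection rule through KO arrays only, with 4 KO and 0 control arrays detected, so its sign carries little weight. Gm4951, an IRG gene, differed by -1.44 ± 0.49 (SE), or -1.14 without KO 4, and Ifi47, another, by -0.63 or -0.87 without KO 4. Of 46 further interferon-stimulated genes, 23 were measured, 15 lower and 8 higher (median -0.20). The lowest p among them was that of Ube2l6, which encodes the conjugating enzyme of ISG15, with a difference of -0.81. The 6 immunoproteasome and peptide transporter genes had 4 lower and 2 higher (median -0.33), with -0.63 for Tap2 and -0.51 for Psmb9. Again no gene of these lists passed the adjusted threshold.

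Marker lists for cell types of the tissue were followed as well. All 10 hepatocyte markers were measured, 6 lower and 4 higher in KO livers (median -0.08). The 10 measured of 11 Kupffer cell and macrophage markers were all higher, from 0.01 for C1qa to 1.10 for Marco (median 0.51). Over all features, 5497 of 11559 had a higher mean. At an unadjusted p under 0.05 (limma), 4 of the 10 were higher, against 1.64% of all features. Marco alone had each KO array above every control, against 0.329% of all features. The summed linear signal of the 10, in which the brightest weigh most, was 6603 to 7725 in KO livers, against 3619 to 6212 in control livers. The 3 measured of 6 plasmacytoid dendritic cell markers were higher (median 0.30, or 0.14 without KO 4). Their sums, 1168 to 1453 in KO livers against 843 to 1080 in control livers, came mostly from Tcf4 and Ly6d. Siglech was detected on 3 KO arrays and 1 control array, and Ccr9, Spib and Klk1 were not measured. Of 13 T and NK cell markers 3 were measured (median 0.17, or -0.02 without KO 4), and Cd3d, Cd3g, Cd4, Cd8a, Nkg7 and Ncr1 were among those not measured. The sums of the 3, 1026 to 1706 in KO livers against 1388 to 1655 in control livers, came mostly from 1 probe of Cd8b1. The remaining Cd8b1 probes were detected on 0 arrays. All 4 measured of 8 neutrophil markers were higher (median 0.29), with sums of 630 to 1916 in KO livers, against 600 to 1331 in control livers. Of 8 endothelial markers 6 were higher and 2 lower (median 0.27), with -0.44 for Clec4g, the brightest. The endothelial sums were 5692 to 9144 in KO livers, against 6213 to 9602 in control livers. None of 3 B cell markers was measured. No marker passed the adjusted threshold, and the part of these cells in the levels above was not tested.

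The arrays differed in brightness and in surgery day. The mean signal was 143 on KO 4 and 336 to 438 on the other 8 arrays, and 9493 probes were detected on KO 4, against 13926 to 16186 on the others. Ltbr, the gene of the deleted receptor, read 4.87 to 6.77 in KO livers and 6.41 to 6.97 in control livers and overlapped; where its probe lies relative to the deletion is not given in the sources used here, so it does not check the labels. The one feature past the adjusted threshold was Acta2, smooth muscle actin, at 1.68 ± 0.20 (SE, limma, adjusted p = 0.0421). With the day of surgery as a block its difference was still 1.63, while its adjusted p was 0.948 (limma). Acta2 passed in 1 of the 9 fits that left out an array, the one without KO 4.

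Surgery day was shared by arrays of both groups on 3 days, with 1 array of each group on a day. The GTPase median difference was -0.68 on day 1 (KO 1 against control 4), -0.17 on day 2 (KO 4 against control 2) and 0.06 on day 5 (KO 3 against control 1). For the other genes it was -0.12, -0.73 and -0.22 on these days, and 22, 24 and 18 of the 32 genes were lower in the KO liver, against 48.0%, 50.5% and 57.8% of all features. Irgm2 differed by -1.62, -4.38 and 1.03, Igtp by -1.78, -3.20 and 1.26, and Parp14 by -1.07, -4.63 and 1.07 on days 1, 2 and 5. These 3 genes were thus higher in the KO liver on day 5, and their lowest difference came from the day that set the dim KO 4 against control 2. Dhx58 (-0.84, -2.10 and -0.26) and Stat2 (-1.16, -1.29 and -0.09) were lower in the KO liver on all 3 days. Rsad2 differed by 2.92, 2.54 and -3.04, and so changed sign on day 5. Day 3 held 1 control only and day 4 held KO livers only. With day as a block in the fit of all 9 arrays, the group difference therefore came only from the 3 shared days, so it restates these pairs. The median was then -0.28 for the GTPases and -0.45 for the others. In that fit 24 of the 32 genes were lower in KO livers, and the share over all features is not given here.

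Both array slides held both groups. The GTPase median difference was -0.33 on slide 1 and -0.14 on slide 2, and that of the other genes -0.29 and -0.22, with 23 and 22 of the 32 genes lower in KO livers, against 49.8% and 54.3% of all features. Irgm2 differed by -1.89 and -1.08, Dhx58 by -0.93 and -0.73, Stat2 by -0.67 and -0.62, and Rsad2 by 0.87 and 1.38 on slides 1 and 2. Of the 6 GTPases, 3 changed sign between slides 1 and 2, namely Irgm1 (-0.08 and 0.01), Iigp1 (-0.26 and 0.05) and Gbp2 (-0.11 and 0.12).

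In a fit of the authors' own log2 values with group and day, the coefficients of days 2, 4 and 5 against day 1 were at most 1e-04 for every feature, against means of 0.345, 0.563 and 0.357 (absolute) in the values used above. Day 3, with its 1 control, averaged 0.0935. How these values were made is not given in the sources used here. In them 5 of the 32 genes passed an adjusted p of 0.05 in the limma fit, all lower in KO livers, against 5.85% of all features lower and 3.43% higher. They were Stat2 (-0.43, adjusted p = 0.0215), Irf1 (-0.47, 0.0262), Oasl2 (-0.29, 0.0272), Dhx58 (-0.44, 0.0359) and Ifit3 (-0.34, 0.0442), and none was a GTPase gene. With day fitted as a block in the same values, 0 of 11559 features (0%) passed in the limma fit, and 4 of the 32 genes had an unadjusted p under 0.05, against 4.46% of all features.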

How the data were processed

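Total RNA of 9 whole livers was labelled as biotinylated cRNA and hybridized to Illumina bead arrays, per the labels' protocols. The deposited intensity is the mean bead signal of 45281 probes on each array, not normalized, per the file headers, and the deposited detection p-value of each probe comes from the same file. The authors' log2 values, made with Partek per the submitters' processing notes, have equal column means and next to no difference between days 1, 2, 4 and 5; their steps are not given in the sources used here, and they served as an alternative.

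Signals were background-corrected by limma's normexp with negative controls inferred from the detection p-values (offset 16), then quantile-normalized and taken as log2, which understates differences of dim probes. The filter, a detection p under 0.05 on 4 or more arrays, kept 15687 probes, and the probe with the highest mean stood for its gene, which left 11559 features. By the platform annotation 34885 probes had 1 gene symbol, 18 had several and 10378 had none. Groups were compared with lmFit and eBayes (limma 3.58.1, R 4.3.3), two-sided, without covariates, with Benjamini-Hochberg adjustment over all features. The median SE over features was 0.31. Independent features of the same design were also simulated. Planted differences of 0.5, 1, 2 and 3 were called in 1%, 19.8%, 70.4% and 94% of cases. The number of arrays limits the precision.

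Each GTPase and transcription factor gene, and the 8 other genes with the smallest p, were given with all array values, and other lists with the 2 smallest p at most. The members and lists were chosen with earlier results of these data known. Alternatives were other normalizations, filters and probe choices, day, slide, array weights and each array left out.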

Additional observations from a re-analysis of the deposited data

Results flagged for a closer look

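Of 68 sets of arrays tested with Dixon's criterion (the 32 measured genes and the GTPase and other medians, each in both groups), 7 had an array apart from the rest of its group, and chance gives about 1 in 20. On KO 4, the dim array, Irf9 read 5.59, against 7.36 to 7.91 on the other KO arrays, Isg15 4.42, against 5.09 to 5.33, and Iigp1 6.35, against 4.81 to 5.00. Irf9 and Isg15 were low there and Iigp1 high. Among the controls, Rsad2 read 9.76 on control 1, against 6.68 to 6.74 on the others, and Psme2 4.58 on control 1, against 5.15 to 5.21. Mx2 read 7.13 on control 2, against 6.43 to 6.47 on the others, and Irf1 9.30 on control 3, against 10.22 to 10.39. What set these arrays apart was not tested.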

How the results depend on the processing

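Of the 32 genes, 14 were lower in KO livers in the main result and under each alternative that tested them (all 23 for 2 genes, 22 for 12 genes that the stricter detection filter drops), 1 (Oasl1) was higher in all, and 17 took both signs; only the authors' values called any (5). The 1 feature past the threshold became 0 under median scaling, mean of probes, the day block, slide as a term, the day block or median scaling without KO 4, and the authors' values with the day block, 10 with array weights, 1072 in the authors' values, and 0 to 4 with each array left out. Genes lower in KO livers numbered 5 of 12 under the stricter detection filter (p under 0.01 on all 9 arrays), and 21 to 25 with each array left out. That filter drops genes not detected on KO 4, but also Oasl2 and Iigp1, for which KO 4 was the highest KO array. The GTPase median was -0.46 under median scaling, where the median of all features was -0.26, and -0.35 to -0.08 with each array left out. The median of the other genes was 0.018 under the stricter filter, -0.061 with the day block without KO 4, and -0.40 to -0.14 with each array left out. The GTPase minus other median, 0.14, was -0.22 with the day block without KO 4, -0.11 to 0.29 with each array left out, and -0.0468 with the Mx gene counted as a GTPase. Signs turned for Irgm1 (-0.0068 with array weights, -0.0162 in the authors' values with the day block, -0.125 with mean of probes, -0.434 under median scaling, -0.145 with that and without KO 4, -0.0306 with slide, -0.216 with the day block without KO 4, -0.14 to 0.13 with each array left out) and Gbp2 (-0.0454 in the authors' values, -0.0803 there with the day block, -0.0561 with cyclic loess, -0.339 under median scaling, -0.00402 without background correction, -0.124 with the day block, -0.426 with that and without KO 4, -0.22 to 0.18 with each array left out). Iigp1 was 0.015 with the day block and -0.367 to 0.0657 with each array left out. With the day block without KO 4, Bst2 was 0.0269, Rsad2 -0.0606, Ifna1 -0.24, Mavs 0.0764, Siglech -0.108, S100a9 -0.269 and S100a8 -0.252. Ifna1 was -0.0925 with array weights and -0.0536 to 0.735 with each array left out, Apoa1 0.0101 with cyclic loess, S100a9 -0.0738 and S100a8 -0.156 under median scaling, and S100a8 -0.299 with the day block. The cause was not tested. With the day block, only days that held both groups add to the group difference, and without KO 4 these were days 1 and 5. The combinations without KO 4 and the authors' values with the day block were chosen after seeing the data. The 9 genes below the detection rule have no level here.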
